A study of Mus musculus with 6 samples.

Results

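The genes described here are 10 regulators of the G1 phase of the cell cycle, chosen by symbol. They comprise the cyclins Ccnd1, Ccnd2, Ccnd3 and Ccne1, the kinases Cdk4 and Cdk6, and the inhibitors Cdkn1a, Cdkn1b, Cdkn1c and Cdkn2c. Each symbol had 1 row among the 22183 genes of the deposited table, and all 10 passed the filter on low counts. RNA was sequenced from cells labelled as peritoneal endothelial cells (ECs), from 3 saline mice and 3 PD mice, all wild type, which had received saline or glucose-based peritoneal dialysis (PD) fluid into the peritoneal cavity for 6 weeks. The study used adult male C57BL/6J mice, and both groups were injected daily. The sample labels describe magnetic sorting of CD31+ cells, whereas the study's methods describe flow sorting of CD31+ CD45- cells from the mesentery. Transcripts of the leukocyte marker Ptprc (CD45) were above those of the EC markers Pecam1 and Cdh5 in both groups, so the libraries are described by their labels and not as pure ECs. Total counts ran from 21973426 to 26374292 per library. Levels are given as CPM, a gene's counts relative to the library total after scaling by the TMM method, and log2 fold changes are positive where PD mice were higher. SE stands for the standard error of a log2 fold change, and the p-values are adjusted over all genes tested.

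D-type cyclins are made in response to growth factors and activate the kinases CDK4 and CDK6, which phosphorylate the retinoblastoma protein. That releases E2F transcription factors, which drive genes for DNA synthesis as well as the gene of cyclin E1, the partner of CDK2 at the entry into S phase. Inhibitors of the INK4 family, such as p18 (Cdkn2c), bind CDK4 and CDK6 directly. Those of the CIP/KIP family, p21 (Cdkn1a), p27 (Cdkn1b) and p57 (Cdkn1c), bind cyclin-CDK complexes, with CDK2 as the main kinase inhibited. Adult ECs are mostly quiescent and re-enter the cycle when vessels grow.

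The upstream sequences of the inhibitors that moved most in each direction, Cdkn1a and Cdkn1b, are shown so that a match to the p53 response element at Cdkn1a can be seen beside windows without one; p53 is a stress-activated transcription factor. They were taken from RefSeq on GRCm38.p6, in which 7 of the 10 genes had an entry; Ccnd1, Ccnd2 and Cdkn1c had none. Each is the 250 bases before an annotated start, on the + strand, at chr17:29090729-29090978 and chr17:29093519-29093768 for both starts of Cdkn1a and at chr6:134920151-134920400 for Cdkn1b. Capitals mark a p53 response element, GC boxes (GGGCGG) and CCAAT boxes (CCAAT), each searched on both strands, and none of the marked stretches overlapped another.
Cdkn1a, upstream start: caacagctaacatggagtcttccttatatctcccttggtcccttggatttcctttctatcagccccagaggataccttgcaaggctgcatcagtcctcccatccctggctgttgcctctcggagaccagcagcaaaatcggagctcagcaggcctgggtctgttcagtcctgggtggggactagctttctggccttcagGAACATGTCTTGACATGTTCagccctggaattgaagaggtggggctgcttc
Cdkn1a, downstream start: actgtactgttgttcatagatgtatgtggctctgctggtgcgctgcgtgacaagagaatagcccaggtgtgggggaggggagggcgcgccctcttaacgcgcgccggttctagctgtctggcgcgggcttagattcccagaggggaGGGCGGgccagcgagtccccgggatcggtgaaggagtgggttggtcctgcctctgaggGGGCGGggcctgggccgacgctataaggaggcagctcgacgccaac
Cdkn1b: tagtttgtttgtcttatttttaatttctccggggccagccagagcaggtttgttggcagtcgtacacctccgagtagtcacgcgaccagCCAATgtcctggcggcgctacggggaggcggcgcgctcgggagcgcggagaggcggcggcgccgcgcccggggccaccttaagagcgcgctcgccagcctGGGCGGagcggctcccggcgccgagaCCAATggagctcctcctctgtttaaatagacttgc

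The match to the p53 response element began 51 bases before the upstream start of Cdkn1a. The search was for a pair of adjacent 10-base sites, each with the p53 consensus. At most 1 base off was allowed in the pair, and none at the core C and G. This search was added after the sequence had been seen, so the share of matching windows does not test the match at Cdkn1a. It matched 19 of 32851 promoter windows, or 0.0578%, and among the 14 genes of a list of p53 targets that had a window, it matched 1, Ccng1, whose log2 fold change was 0.0064 (edgeR, adjusted p = 0.94). The downstream Cdkn1a window held 2 GC boxes, and the Cdkn1b window held 1 GC box and 2 CCAAT boxes; 32.7% and 33.8% of all windows held at least 1 of each, respectively. No E2F motif (TTTCCCGC, TTTCGCGC, TTTGCCGC or TTTGGCGC, in 1.86% of all windows) was present in the windows of the 7 genes.

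In PD mice, the inhibitor Cdkn1a was 3.06-fold higher, all D-type cyclins and Cdkn1c were between 1.30-fold and 1.52-fold higher, and Cdkn1b was lower, at 0.62 of its saline level. Of the 10 genes, 5 rose and 1 fell at an adjusted p of 0.05 (quasi-likelihood test of edgeR, adjusted by the Benjamini-Hochberg method), whereas Ccne1, Cdk4, Cdk6 and Cdkn2c did not pass. Over all 14005 genes tested, 58.9% passed the same threshold, 31.1% as higher and 27.8% as lower, so a count of 6 in 10 was near the background. The median log2 fold change was 0.16 over the 10 genes and 0.02 over all genes tested. The groups did not overlap in 7 of the 10 genes, against 65.6% of all genes tested.

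**Figure D1:**
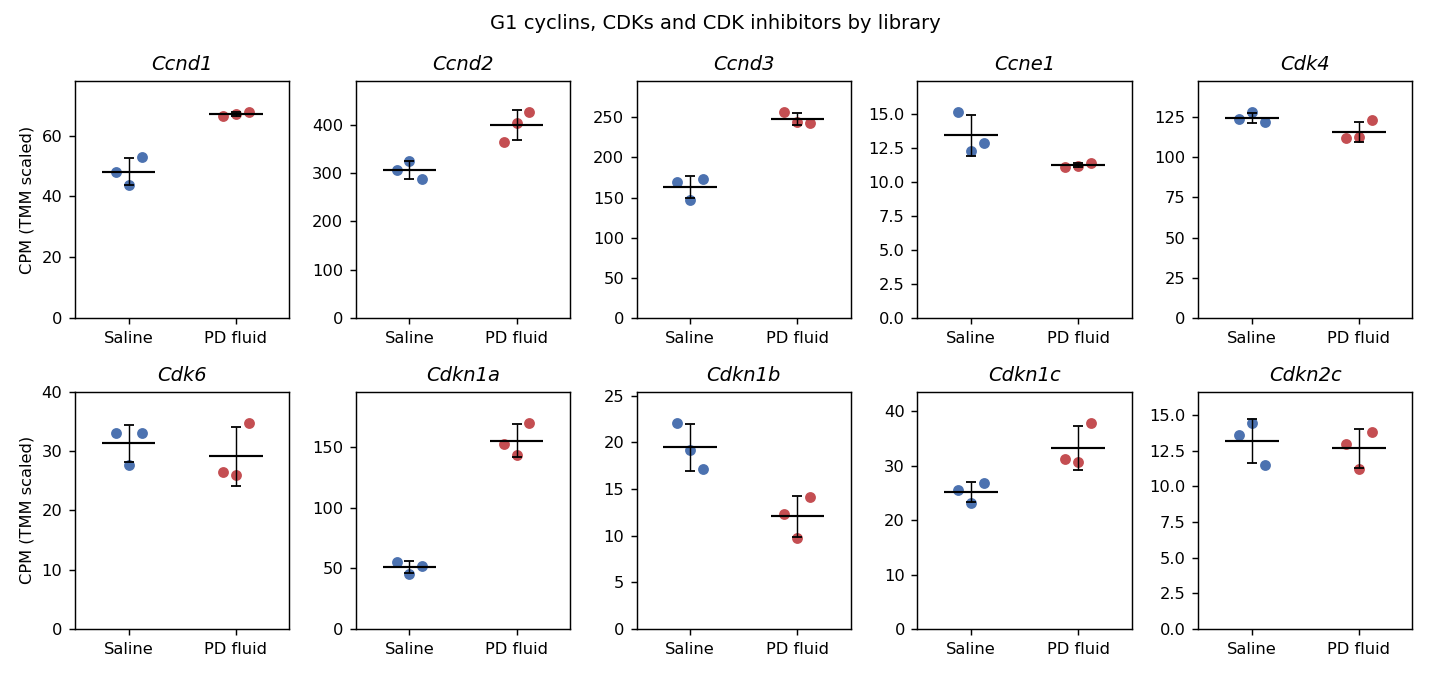
CPM of each of the 10 genes (vertical axes from 0, each on its own scale) in the 3 saline libraries (blue) and the 3 PD fluid libraries (red), with lines for the mean and bars for the SD. Cdkn1a, the D-type cyclins and Cdkn1c were higher in every PD library than in every saline library, Cdkn1b and Ccne1 were lower in every PD library, and the groups overlapped for Cdk4, Cdk6 and Cdkn2c.

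Among the D-type cyclins, Ccnd3 (ENSMUSG00000034165), which is prominent in lymphoid cells but not restricted to them, had the largest fold change. It was at 169, 147 and 174 CPM in the saline mice and at 256, 244 and 242 CPM in the PD mice. Every PD mouse was above every saline mouse, and the log2 fold change was 0.60 (edgeR, SE 0.07, adjusted p = 4.2e-05). Ccnd1 (ENSMUSG00000070348), the D-type cyclin most closely tied to mitogen signalling in adherent cells, was at 48.1, 43.7 and 52.8 CPM in the saline mice and at 66.4, 67.2 and 67.7 CPM in the PD mice. The PD mice lay close together and above all saline mice, with a log2 fold change of 0.48 (edgeR, SE 0.08, adjusted p = 0.00056). Ccnd2 (ENSMUSG00000000184), the D-type cyclin with the highest level per length, was at 306, 324 and 287 CPM in the saline mice and at 365, 404 and 426 CPM in the PD mice. Its groups did not overlap either, and its log2 fold change was 0.38 (edgeR, SE 0.07, adjusted p = 0.0011).

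The mix of D-type cyclins was compared per transcript length. As a share of the summed FPKM of the 3 genes (the authors' values per transcript length and library size), Ccnd2 made up 67.9% ± 2.83 in saline mice and 65.6% ± 2.43 in PD mice (SD, n = 3; exact permutation test, p = 0.5). Ccnd3 made up 27.9% ± 2.42 and 30.2% ± 2.28 (SD, n = 3; exact permutation test, p = 0.4). Ccnd1 made up 4.14% ± 0.44 and 4.198% ± 0.15 (SD, n = 3; exact permutation test, p = 0.9). These two-sided tests cannot give a p under 0.1 with 3 mice against 3, and none of the differences was larger than the spread between mice.

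Ccne1 (ENSMUSG00000002068), the cyclin that follows the D-type cyclins and is itself an E2F target, did not share their direction. It was at 15.1, 12.2 and 12.8 CPM in the saline mice and at 11.1, 11.2 and 11.4 CPM in the PD mice. All PD mice were below all saline mice, but the log2 fold change of -0.26 (95% confidence interval -0.53 to 0.01) did not pass the threshold (edgeR, adjusted p = 0.094).

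The kinase partners of the D-type cyclins did not pass the threshold in the counts. Cdk4 (ENSMUSG00000006728) was at 123, 128 and 122 CPM in the saline mice and at 112, 113 and 123 CPM in the PD mice. The third PD mouse lay within the range of the saline mice, and the log2 fold change was -0.11 (95% confidence interval -0.25 to 0.04, adjusted p = 0.18, edgeR). Cdk6 (ENSMUSG00000040274), which acts in parallel with Cdk4 and is prominent in blood cells, was at 33.1, 27.6 and 33.1 CPM in the saline mice and at 26.5, 26.0 and 34.8 CPM in the PD mice. The groups overlapped, and the log2 fold change was -0.11 (95% confidence interval -0.39 to 0.17, adjusted p = 0.49, edgeR).

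For Cdk6, the counts and the authors' FPKM gave different answers. Its FPKM was 5.31, 5.23 and 5.23 in the saline mice and 7.84, 7.54 and 7.71 in the PD mice, without overlap and with far less scatter than the counts. On the log2(FPKM + 1) scale, a fit chosen after this difference had been seen, Cdk6 was higher by 0.48 (adjusted p = 0.0020 from limma). That adjusted p rests in part on the low scatter of the FPKM, whose source was not tested. The number of counts per unit of FPKM, which grows with the transcript length assigned to a gene, was 0.63 of the saline value in PD mice after centring on the median gene. A change of at least this size on the log2 scale was present in 0.297% of the 13129 genes with an FPKM above 0.1 in every library. GENCODE M21, an annotation on GRCm38, lists 5 Cdk6 transcripts between 376 and 11525 bases long, apart from those with a retained intron. Among the other members, Cdkn1b had the next largest change, at 1.13 of the saline value, and the remaining 8 lay between 0.94 and 1.02. Which transcripts the reads came from was not tested.

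**Figure D2:**
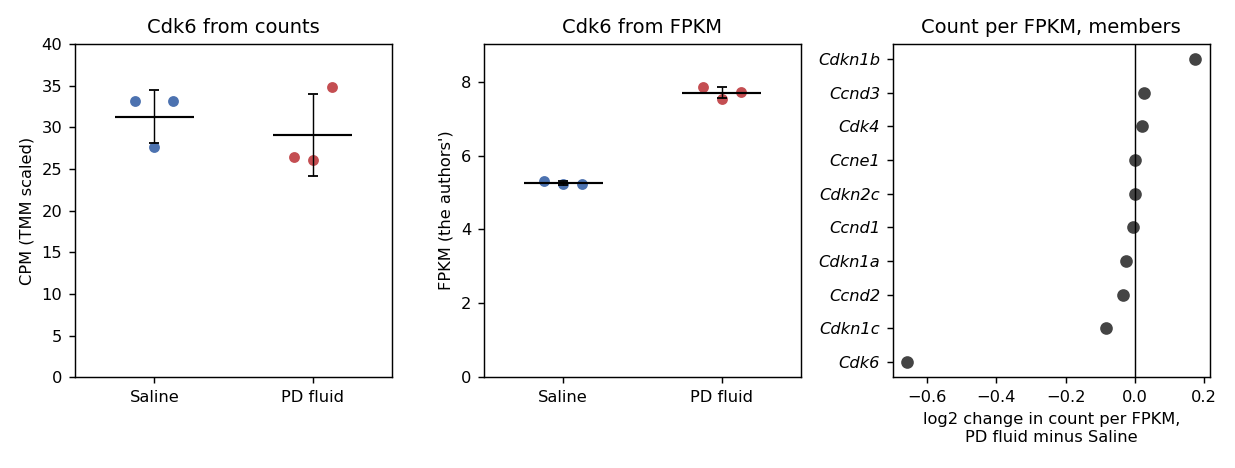
Cdk6 in CPM from the counts (left) and in the authors' FPKM (middle) in the 3 saline and 3 PD fluid libraries, with lines for the mean and bars for the SD, and the log2 change in counts per unit of FPKM for each of the 10 genes (right). Cdk6 overlapped between groups in CPM and did not in FPKM, and its counts per FPKM fell by 0.66 on the log2 scale while the other 9 genes lay between -0.08 and 0.18.

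The balance between both kinases depended on that choice. Per length, Cdk6 made up 7.28%, 7.14% and 7.11% of the summed FPKM of Cdk4 and Cdk6 in the saline mice and 11.03%, 11.2% and 10.6% in the PD mice. The difference of 3.80 percentage points was larger than the spread between mice, with p = 0.1 in the two-sided exact permutation test, the smallest it allows, and 0.4 after Benjamini-Hochberg adjustment over 4 shares. In counts, the share was 20.1% ± 2.03 in saline mice and 20.01% ± 1.80 in PD mice (SD, n = 3).

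Of the CIP/KIP inhibitors, Cdkn1a (ENSMUSG00000023067), which encodes p21 and is induced by p53 and by several other stress and growth factor pathways, changed most. It was at 55.3, 45.5 and 51.7 CPM in the saline mice and at 153, 144 and 170 CPM in the PD mice. The groups were far apart, with a log2 fold change of 1.61 (edgeR, SE 0.09, adjusted p = 1.1e-07). Cdkn1c (ENSMUSG00000037664), which encodes p57 and is expressed from the maternal allele, was at 25.5, 23.2 and 26.8 CPM in the saline mice and at 31.2, 30.7 and 37.9 CPM in the PD mice. All PD mice were above all saline mice, the third by the widest margin, and the log2 fold change was 0.40 (edgeR, SE 0.11, adjusted p = 0.0078).

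Cdkn1b (ENSMUSG00000003031), which encodes p27, a brake of resting cells that is controlled largely through protein turnover, moved the other way. It was at 22.1, 19.2 and 17.1 CPM in the saline mice and at 12.3, 9.77 and 14.1 CPM in the PD mice. No PD mouse reached the lowest saline mouse, and the log2 fold change was -0.69 (edgeR, SE 0.15, adjusted p = 0.0026). The INK4 inhibitor Cdkn2c (ENSMUSG00000028551) was at 13.6, 14.5 and 11.5 CPM in the saline mice and at 13.0, 11.2 and 13.8 CPM in the PD mice. Its groups overlapped throughout, and its log2 fold change was -0.06 (95% confidence interval -0.36 to 0.24, adjusted p = 0.72, edgeR).

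**Figure D3:**
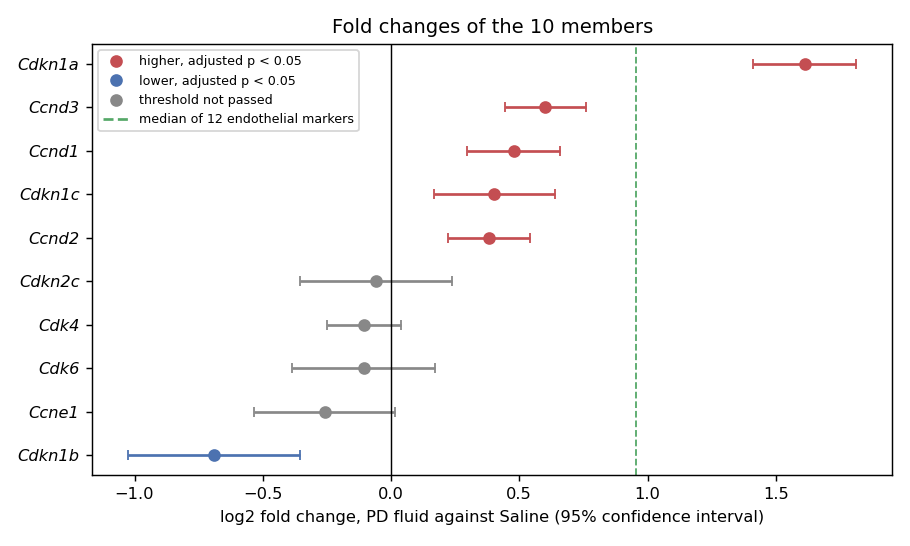
Log2 fold change of PD fluid against saline (horizontal axis) for the 10 genes, with 95% confidence intervals from the edgeR fit; red and blue points passed an adjusted p of 0.05 as higher and lower, grey points did not, and the dashed line is the median of 12 endothelial marker genes (0.96). Cdkn1a, at 1.61, is the 1 gene to the right of the dashed line.

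Levels per length set the genes in nearly the same order in both groups. In saline mice, the mean FPKM fell from 211 ± 11.4 for Ccnd2 through 86.5 ± 6.64 for Ccnd3, 68.0 ± 0.38 for Cdk4 and 31.7 ± 1.39 for Cdkn1a (SD, n = 3). Below these came Cdkn1c at 15.9, Ccnd1 at 12.8, Cdkn2c at 9.79, Cdkn1b at 7.49, Ccne1 at 6.71 and Cdk6 at 5.26. Cdkn1b and Ccne1 were the neighbours whose ranges overlapped. In PD mice, Cdkn1a at 99.2 ± 7.43 stood above Cdk4 at 62.5 ± 2.68, and Cdkn1b at 4.13 ± 0.80 was the lowest of the 10 (SD, n = 3). Cdk6, at 7.70, stood above Ccne1 and Cdkn1b, and no neighbours overlapped. That place of Cdk6 holds for FPKM, in which it rose, whereas its log2 fold change in counts was -0.11.

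Libraries of both groups held transcripts that mark cells other than ECs, and their levels differed between the groups. Many leukocytes also carry CD31, so leukocyte transcripts go against the CD31+ CD45- sort in the study's methods but not against a CD31+ label. The EC marker Pecam1 (CD31) did not pass the threshold, at a mean of 469 ± 19.4 CPM under saline against 514 ± 7.85 CPM under PD fluid, and Cdh5 (VE-cadherin) was at 18.9 ± 2.72 and 33.3 ± 1.03 CPM (SD, n = 3). Ptprc (CD45), the marker that the flow sort was described as excluding, was at 2373 ± 127 and 1473 ± 63.6 CPM (SD, n = 3), above both EC markers. In the study's methods, the CD31 and CD45 antibodies are listed with the same fluorescent label. Whether this bears on the leukocyte transcripts was not tested. Of 12 EC markers, 11 rose, with a median log2 fold change of 0.96 and a summed level of 1145 to 1158 CPM in saline and 1826 to 1904 CPM in PD mice. Of 6 general leukocyte markers, 5 fell and 1 rose, with summed levels of 9012 to 9507 CPM and 7202 to 7315 CPM. All 8 B cell markers fell (median -1.11, from between 6276 and 6546 to between 2965 and 3011 CPM). Of 8 T cell markers, 4 fell and 4 did not pass, Cd3e at 0.06 among them. The summed level of the 8 T cell markers went from between 2059 and 2101 to between 1625 and 1766 CPM. Of 7 germinal centre B cell markers, 4 fell and 1 rose, with summed levels of 131 to 139 CPM and 103 to 109 CPM. Over all genes tested, 31.1% rose and 27.8% fell.

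All 8 macrophage markers, Csf1r included, rose (median 2.05, from between 2329 and 2475 to between 9521 and 10250 CPM). The 7 mesothelial (median 3.58), 7 fibroblast (3.19), 6 mural cell (1.59) and 7 pancreatic acinar markers (11.74) all rose as well. Their summed levels went from at most 17.9, 102, 279 and 5.30 CPM in saline mice to at least 156, 855, 398 and 6015 CPM in PD mice, respectively, and no gene of any of these lists was at 0 counts in all libraries. Of the 10 G1 genes, Cdkn1a alone had a log2 fold change above the median of the EC markers. At 1.61, it lay near the median of the mural cell markers and below those of the macrophage, fibroblast, mesothelial and pancreatic acinar markers. The part of these cell types in the levels of the G1 genes was not tested, and in RNA from mixed cells, fewer cells of a type cannot be told apart from less RNA per cell.

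Of 28 other G1/S regulators, 27 were tested, 2 rose, 9 fell and 16 did not pass, against 31.1% higher and 27.8% lower over all genes tested. The median log2 fold change was -0.19, against 0.02 over all genes. Rb1, which encodes the retinoblastoma protein, was at 64.8, 62.3 and 64.7 CPM in the saline mice and at 47.5, 51.1 and 47.1 CPM in the PD mice. The groups did not overlap, and the log2 fold change was -0.40 (edgeR, adjusted p = 0.00079), and its relative Rbl1 (p107) fell by 0.64 on the log2 scale (edgeR, adjusted p = 6.7e-05). Cdk2, the partner of cyclin E, fell by 0.30, Cks1b, a CDK-binding subunit that also aids the breakdown of p27, by 0.65, and Cdk1, the mitotic kinase, by 0.67. For Ccne2, the gene of cyclin E2, the log2 fold change was -0.20 (edgeR, adjusted p = 0.23), and for the growth regulator Myc it was 0.00 (edgeR, adjusted p = 0.99).

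The rising genes of that list were E2f1 and Cdkn2b. E2f1, the transcription factor released from the retinoblastoma protein, was at 8.04, 4.70 and 6.17 CPM in the saline mice and at 10.6, 12.2 and 11.1 CPM in the PD mice, and its log2 fold change was 0.83 (edgeR, adjusted p = 0.0028). Cdkn2b, which encodes the INK4 inhibitor p15 and is a known target of TGF-beta, was at 1.80, 1.89 and 1.57 CPM and at 3.16, 3.06 and 3.53 CPM, and its log2 fold change was 0.89 (edgeR, adjusted p = 0.0057). Neighbouring Cdkn2a, with 0 to 3 counts in each library, was not tested. The INK4 gene Cdkn2d (p19) fell by 0.46 on the log2 scale (edgeR, adjusted p = 9.4e-05), so the INK4 genes moved apart.

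Most genes used in S phase fell: of 20 tested, 0 rose, 15 fell and 5 did not pass, with a median of -0.31, where 27.8% of all genes tested fell. The largest falls were those of Prim1, a primase subunit, at -0.58, Tk1, a thymidine kinase, at -0.52 and Mcm4, a helicase subunit, at -0.51. Of 20 genes used in G2 and mitosis, 0 rose, 11 fell and 9 did not pass, with a median of -0.43. The number called in either direction was near the 58.9% of all genes tested, but all 11 fell. Of all genes tested, 27.8% fell and 31.1% rose. Ccnb1, the mitotic cyclin, fell by 0.89, the checkpoint kinase gene Bub1 by 0.76 and the spindle protein gene Nusap1 by 0.59. Mki67, the proliferation marker Ki-67, had a log2 fold change of 0.01 (95% confidence interval -0.24 to 0.27, adjusted p = 0.93, edgeR). Markers of several cell types, B cells among them, also differed between these libraries, as given above, and their part in these changes was not tested.

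Other targets of p53 were compared because Cdkn1a is one of them. Of 18 tested, 6 rose, 2 fell and 10 did not pass, with a median log2 fold change of 0.03. The number that rose was near the 31.1% of all genes tested, and the 8 called in either direction were fewer than the 58.9% background would give. Sesn2, a stress-induced regulator of mTORC1, was at 8.51, 6.73 and 9.56 CPM in the saline mice and at 21.96, 17.9 and 18.7 CPM in the PD mice, and its log2 fold change was 1.24 (edgeR, adjusted p = 4.5e-05). The death receptor genes Tnfrsf10b and Fas rose by 0.68 each, at unlike levels. Tnfrsf10b went from a mean of 3.39 ± 0.31 to 5.45 ± 1.52 CPM (SD, n = 3; adjusted p = 0.021 in edgeR). Fas went from 37.3 ± 4.79 to 59.7 ± 3.92 CPM (SD, n = 3; adjusted p = 0.00019 in edgeR). Sesn1 and Trp53inp1 fell by 0.25 and 0.21. Mdm2, the gene of the ubiquitin ligase that limits p53 and a standard p53 target, was at 81.1, 87.6 and 86.6 CPM in the saline mice and at 85.5, 90.6 and 88.0 CPM in the PD mice. Its groups overlapped, with a log2 fold change of 0.05 (95% confidence interval -0.10 to 0.20, adjusted p = 0.55, edgeR).

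**Figure D4:**
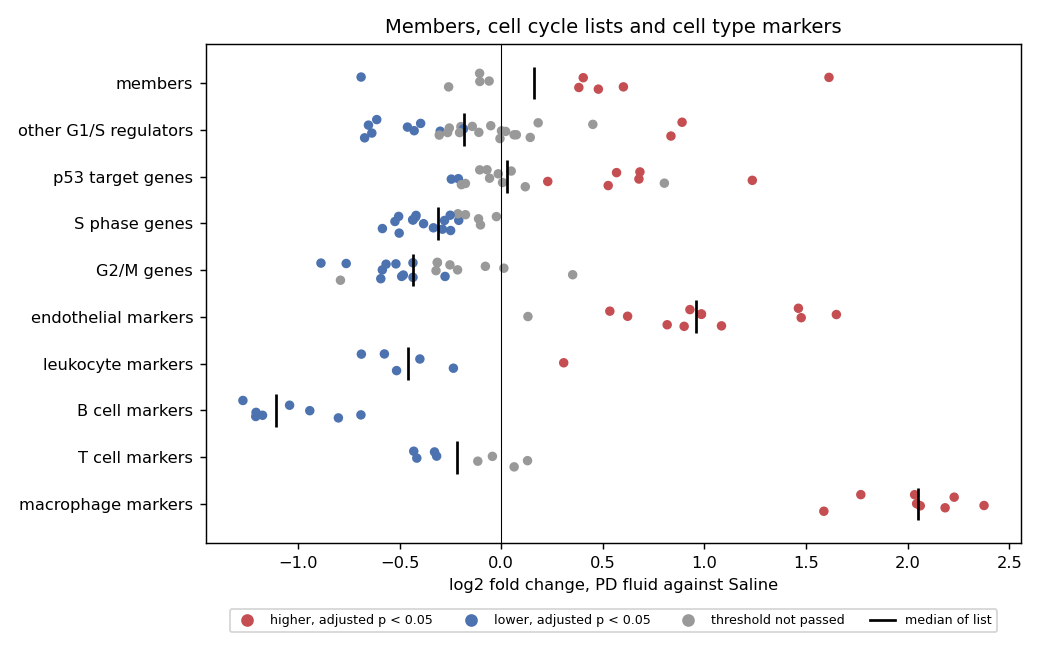
Log2 fold change of PD fluid against saline (horizontal axis) for each tested gene of the 10 members, 4 cell cycle and p53 lists and 5 cell type marker lists, with a black bar at the median of each list; red and blue points passed an adjusted p of 0.05 as higher and lower and grey points did not. The members spread from -0.69 to 1.61 while no S phase or G2/M gene was called higher, and the B cell and macrophage markers lie on opposite sides of 0.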

How the data were processed

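The authors deposited whole-number read counts per gene, without normalization, and FPKM values computed by the authors, for each of 6 libraries. Columns were matched to mice by the sample labels, and 0 columns of sample values were left over. The submitters' processing notes name fastp 0.18.0, Bowtie2 2.2.8, HISAT2, StringTie and RSEM; the genome build and annotation are not given in the sources used here. The authors' fold changes, p-values and FDR were not used. No source states that the libraries mark strand, so reads of a gene and of one on the opposite strand cannot be told apart; in GENCODE M21, such a gene overlaps Ccnd1, Ccnd2, Ccnd3, Cdk4, Cdk6, Cdkn1a and Cdkn1c.

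Counts were filtered with filterByExpr, scaled by TMM and tested with edgeR 4.0.16 (quasi-likelihood, no covariate, Benjamini-Hochberg over 14005 genes, threshold 0.05) in R 4.3.3. On simulated counts with 198 changed genes tested (2-fold, a log2 change of 1), this test recovered 82.8%, with 6.82% of calls on unchanged genes. Smaller changes were not simulated, and far fewer genes changed than the 58.9% called in the data, so these rates may not hold for the data. DESeq2 1.42.0, limma 3.58.1 (voom, and log2(FPKM + 1) with a pseudocount of 1), other scalings, no filter, a replicate block and leaving out each library were alternatives. Shares of FPKM were compared with exact permutation tests (scipy 1.17.1). The members and gene lists were chosen with earlier results of these data known. The text names all 10 members and, of the cell type markers, Pecam1, Cdh5, Ptprc, Cd3e and Csf1r; 1 other marker of the naming rule is not reported here. From each cell cycle and p53 list, the text names the called genes that rose most and fell most (up to 3 each, at a mean count of 10 or more), and Rb1, Cdk2, Ccne2, E2f1, Myc, Mdm2 and Mki67; other named genes were chosen after their values were seen.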

Additional observations from a re-analysis of the deposited data

How the results depend on the processing

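The same 6 members passed, in the same directions, with RLE, upper quartile and total count scaling, with low counts kept, in DESeq2 and limma-voom, with a replicate block and without each library in turn. Only the fit on log2(FPKM + 1), added after the data were seen, differed: it called 7, the addition being Cdk6, whose log2 fold change reversed to 0.48. The total called in each of the 4 other cell cycle and p53 lists stayed within 1.5 times of the reported one under all these settings. Of p53 targets, the 2 that fell became 1 without the first saline, the second saline or the second PD mouse. They became 3 with RLE, upper quartile and total count scaling, with low counts kept, in DESeq2 and with a replicate block. The 6 that rose became 5 without the first saline, the third saline or any 1 PD mouse. Leaving out 1 library moved Cdkn2c between -0.15 and 0.03, with the sign reversed to 0.0095 without the second saline mouse and to 0.030 without the second PD mouse, never past the threshold. Of the other members that did not pass, Cdk6 (-0.11) ran from -0.25 without the third PD mouse to -0.03 without the second PD mouse, and was also moved by over 1.5 times without any other library (-0.19 to -0.04); Ccne1 (-0.26) was -0.16 without the first saline mouse. The difference in the Cdk6 share of both kinases, 3.80 percentage points in FPKM, was -0.076 in counts, and the cause was not tested; without each library it ran from 3.66 to 3.96. The difference in the Ccnd1 share ran from -0.18 to 0.26 without each library, reversed to -0.18 without the second saline mouse and to -0.03 without the first PD mouse. In the sample labels, same-numbered mice shared only a number. The correlations of their deviations from the group means were 0.105, 0.0406 and -0.173, and not every library correlated best with its own number. As the deviations within a group sum to 0, these correlations depend on each other and cannot show whether mice were paired. With the replicate number as a block, 6 members and 7909 of 14005 genes were called, against 8246 without it. Members at about 13 CPM, such as Ccne1 and Cdkn2c, had standard errors of 0.12 and 0.13, so changes under about 0.3 on the log2 scale were not resolved for them.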

Other observations

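Members of the E2F family of transcription factors, only some of which are controlled by the retinoblastoma protein, did not move together. Their values were picked out after they had been seen. E2f1 rose (log2 fold change 0.83) and E2f2, another activating member, fell by 0.61 on the log2 scale (adjusted p = 0.0021 in edgeR), from 21.6 ± 3.29 to 14.1 ± 1.04 CPM (SD, n = 3). The other 6, E2f3 to E2f8, did not pass. E2f4, a repressor that acts in resting cells and the E2F with the highest CPM here, had a mean of 91.9 ± 9.63 CPM under saline and 96.0 ± 0.96 CPM under PD fluid (SD, n = 3; adjusted p = 0.52 in edgeR).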
